A study of Mus musculus with 8 samples.

Results

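Mouse chromosome 8 held 9605 of the 167573 accessible regions, 5.73%, whose mean over 8 libraries was at least 10 normalized reads. They were chosen by chromosome and by that minimum alone, and 70 of the 9675 regions of the chromosome fell below it. The chromosome itself was singled out because its values in the Etv2 knockout libraries stood apart from those in wild-type libraries. The comparison of knockout with wild type is therefore given as a description, with no p-value printed. Calls of single regions in that comparison come from the values behind the choice, so they are counts that lend it no weight. The study concerns what Etv2+ and Flk1+ progenitors give to the endothelial, blood and cardiac lineages. It used cells sorted at day 4 from embryoid bodies, which are aggregates of differentiating mouse embryonic stem (ES) cells. KO DP cells came from a line with Etv2 knocked out and were PDGFRalpha+FLK1+. OE SP cells were PDGFRalpha-FLK1+ cells of the iETV2 line, given doxycycline at 2 µg/ml from day 2.5. WT SP cells were PDGFRalpha-FLK1+ and WT DP cells PDGFRalpha+FLK1+ cells of the wild-type A2lox.Cre line. Each group had 2 libraries, and the labels do not say whether these came from separate cultures. The p-values given therefore cover no more than the variation among these particular libraries, which could be technical. The cell line changes with the genotype and with doxycycline, so a difference between lines and an effect of Etv2 cannot be told apart. The labels do not give the number of knockout clones. Before differentiation the ES cells were grown on feeder fibroblasts and then without them.

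In ATAC-seq the Tn5 transposase cuts open chromatin and leaves adapters that are sequenced, and promoters and enhancers in use give the most reads. The number of reads in a region depends on how open it is and also on how many DNA copies of it a cell carries. A gained or lost stretch of a chromosome adds to or takes from the reads of all its regions, whatever their function. Gain of chromosome 8 is a known recurrent change of mouse ES cells in culture. DNA copies were not measured in these samples, and openness and copy number cannot be told apart from these reads. Etv2 is an ETS transcription factor needed for vessel and blood development. Chromosome 8 carries genes of these lineages, among them Cdh5 (VE-cadherin, which joins endothelial cells), Klf2 (a factor induced by blood flow), Vegfc (a growth factor for lymphatic vessels), Lyl1 (a blood cell factor) and Cbfb (the partner of the Runx factors).

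Promoters of 7 genes are printed to show sequence from the left edge, the inside and the outside of the low stretch described further on, and from regions that changed in the other comparisons. Each is the RefSeq sequence of the 250 bases before a start annotated for the gene, and each overlaps a measured region. The build is GRCm38.p6, the assembly also called mm10. For Cdh8 the printed bases lie inside the gene's span (99024471 to 99417666), not before its outer end. Capitals mark GGGCGG or its reverse complement CCGCCC, a GC box. Cdh8, which encodes a cadherin of nerve cells, lies where the left edge of a low stretch was found (chr8:99416472-99416721, minus strand). Cbfb (chr8:105170424-105170673, plus strand) and the actin regulator Fhod1 (chr8:105347971-105348220, minus strand) lie inside that stretch. Klf2 (chr8:72318812-72319061, plus strand) and the actin cross-linker gene Palld (chr8:61591140-61591389, minus strand) lie outside it. Pdlim3, a muscle scaffold gene (chr8:45885237-45885486, plus strand), carries a region that fell in OE SP cells, and Piezo1, a channel opened by mechanical force (chr8:122551330-122551579, minus strand), one that was higher in WT SP cells.
Cdh8: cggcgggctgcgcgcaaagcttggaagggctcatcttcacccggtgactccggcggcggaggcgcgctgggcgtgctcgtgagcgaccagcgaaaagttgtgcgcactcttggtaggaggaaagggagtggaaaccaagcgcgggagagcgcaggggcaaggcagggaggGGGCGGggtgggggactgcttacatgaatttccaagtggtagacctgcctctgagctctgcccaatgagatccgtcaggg
Cbfb: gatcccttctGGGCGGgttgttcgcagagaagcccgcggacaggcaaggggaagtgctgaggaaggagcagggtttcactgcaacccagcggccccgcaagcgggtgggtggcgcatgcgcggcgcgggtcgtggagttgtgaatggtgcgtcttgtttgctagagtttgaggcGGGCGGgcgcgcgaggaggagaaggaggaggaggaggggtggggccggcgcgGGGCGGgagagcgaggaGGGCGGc
Fhod1: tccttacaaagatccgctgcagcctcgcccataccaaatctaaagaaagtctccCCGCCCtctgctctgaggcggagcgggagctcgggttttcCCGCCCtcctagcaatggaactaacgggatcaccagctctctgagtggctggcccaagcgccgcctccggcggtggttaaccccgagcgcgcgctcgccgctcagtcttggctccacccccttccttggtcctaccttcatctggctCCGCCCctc
Klf2: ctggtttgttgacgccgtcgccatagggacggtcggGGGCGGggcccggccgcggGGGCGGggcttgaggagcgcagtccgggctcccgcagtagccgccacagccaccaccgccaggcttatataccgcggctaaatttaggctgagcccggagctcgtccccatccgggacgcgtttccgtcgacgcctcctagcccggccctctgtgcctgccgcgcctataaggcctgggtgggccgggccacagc
Palld: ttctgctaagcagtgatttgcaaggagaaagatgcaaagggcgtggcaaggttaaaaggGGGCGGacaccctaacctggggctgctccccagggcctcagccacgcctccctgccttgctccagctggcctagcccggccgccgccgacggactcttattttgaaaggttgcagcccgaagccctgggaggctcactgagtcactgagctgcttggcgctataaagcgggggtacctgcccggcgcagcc
Pdlim3: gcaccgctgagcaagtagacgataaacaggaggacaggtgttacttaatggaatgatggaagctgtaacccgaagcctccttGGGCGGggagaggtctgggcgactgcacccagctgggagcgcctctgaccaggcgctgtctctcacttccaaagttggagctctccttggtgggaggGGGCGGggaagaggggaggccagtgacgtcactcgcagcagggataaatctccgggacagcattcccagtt
Piezo1: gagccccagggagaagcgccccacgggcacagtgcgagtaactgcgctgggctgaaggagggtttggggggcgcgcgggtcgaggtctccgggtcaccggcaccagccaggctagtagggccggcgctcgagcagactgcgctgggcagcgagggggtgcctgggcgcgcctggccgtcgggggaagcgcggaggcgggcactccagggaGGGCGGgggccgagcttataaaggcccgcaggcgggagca
A GC box was in all 7 windows, with 4 in Cbfb, 3 in Fhod1 and 1 in Cdh8, against 32.7% of all 32851 promoter windows of the same length and 33.7% of the 1442 on chromosome 8. CCGGAA or its reverse complement TTCCGG, the core bound by many ETS factors, was in none of the 7, against 12.03% of all windows and 13.7% of those on chromosome 8. The printed windows held 59.2% to 74.0% G and C.

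Most chromosome 8 regions lay in or near genes. By the nearest protein-coding gene within 100 kb, 8343 (86.9%) had a gene, and they covered 947 of the 1043 protein-coding genes of the chromosome. Gene ends (within 1 kb) held 1037 regions, gene bodies 4447, the space between genes 2859, and 1262 regions had no gene within 100 kb. The share at gene ends was 10.8% on chromosome 8, against 11.6% of all regions tested. Regions were 401 to 800 bp wide with a median of 401 bp. The lowest region inside it, at 92121897 to 92122297, held 27.7 and 26.1 normalized reads in KO DP cells, 7.29 and 0 in OE SP cells, 1.02 and 4.96 in WT SP cells and 5.82 and 7.19 in WT DP cells. The highest region outside it, at 90426265 to 90426665, held 1.68 and 3.57 in KO DP cells, 26.99 and 38.1 in OE SP cells, 2.04 and 1.98 in WT SP cells and 2.91 and 2.69 in WT DP cells.

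Libraries held 12477601 to 18853733 reads in regions, of which 858404 to 1319912 were on chromosome 8. The median chromosome 8 region held 28 to 49 reads, so a single typical region gives a coarse value. The median of a library over many regions also moves in steps of whole reads. KO DP replicate 2 and OE SP replicate 2 were the shallowest. A region at Etv2, the targeted gene on chromosome 7, held 0.840 and 0 normalized reads in KO DP cells, against 563 and 611 in WT DP cells. The sorting receptor gene Kdr had 356 and 333 in KO DP cells, against 356 and 362 in WT DP cells. Pdgfra, the gene of the other sorting receptor, overlapped, with 686 and 638 in KO DP cells, against 580 and 657 in WT DP cells. The mesoderm marker Mesp1 was lower, with 341 and 328 in KO DP cells, against 373 and 397 in WT DP cells. All 4 markers of undifferentiated ES cells were above 0 in every library and summed to 652 and 616 in KO DP cells, against 686 and 713 in WT DP cells. All 4 fibroblast markers were above 0 too and summed to 632 and 605 in KO DP cells, against 741 and 787 in WT DP cells. Both sums were lower in KO DP cells, but not every marker was. The fibroblast marker Postn was higher, with 20.99 and 30.9 in KO DP cells, against 17.47 and 17.96 in WT DP cells. The ES cell marker Esrrb overlapped, with 314 and 328 in KO DP cells, against 316 and 329.6 in WT DP cells. Each of the other ES cell and fibroblast markers was lower in both KO DP libraries than in either WT DP library. Among them, the ES cell marker Zfp42 lies on chromosome 8 itself. The part of ES cells and fibroblasts in the values on chromosome 8 was not tested.

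The knockout libraries had more chromosome 8 signal than the wild-type libraries relative to the rest of the genome. Each library was summarised by the median log2(value + 5) of its chromosome 8 regions minus the median over the other 18 autosomes. This shift was 0.20 and 0.16 in KO DP cells, against -0.03 and -0.03 in WT DP cells, a difference of 0.21 on the log2 scale. Both KO DP libraries lay above both WT DP libraries by more than the replicates of a group differed. In KO DP cells the median chromosome 8 region held 49 and 33 reads, against 43 and 29 over all regions tested. Among the other 18 autosomes the same difference ran from -0.11 on chromosome 4 to 0.12 on chromosome 14, with a median of -0.00. As a sum of signal, chromosome 8 was 7.69% and 7.69% of the other autosomes in KO DP cells, against 6.59% and 6.59% in WT DP cells. The ratio of these shares was 1.17.

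**Figure D1:**
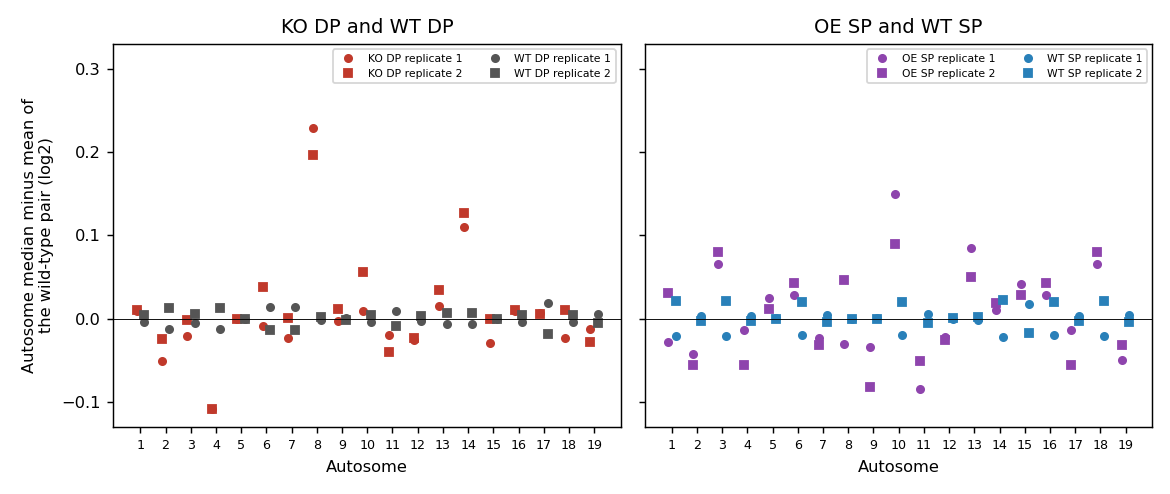
Median log2(value + 5) of each autosome minus the median of the other autosomes, per library, after subtraction of the mean of the wild-type pair; the left panel shows KO DP and WT DP libraries and the right panel OE SP and WT SP libraries. In the left panel both KO DP points of chromosome 8 lie above those of every other autosome, and in the right panel the OE SP points of chromosome 8 lie on either side of 0.

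In the sorted wild-type populations and the induced line the shift lay close to 0. It was 0.00 and 0.00 in WT SP cells, against -0.03 and -0.03 in WT DP cells, a difference of 0.03 (exact permutation test, two-sided, p = 0.3333, the smallest that 2 libraries against 2 can give). In OE SP cells it was -0.03 and 0.05, against 0.00 and 0.00 in WT SP cells, a difference of 0.01 (exact permutation test, two-sided, p = 1). These comparisons share wild-type libraries with each other and with the knockout comparison. The median chromosome 8 region held 37 and 40 reads in WT DP cells, against 38 and 41 over all regions tested. In WT SP cells it held 35 and 37 reads in both sets. Shifts of 0.00 and -0.03 are thus steps of whole reads, and their close match between replicates does not measure the spread. Neither test could have passed a threshold of 0.05 in this design, so they do not show that the groups were alike.

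Along the chromosome the knockout difference came in 3 stretches. In the 26 windows of 5 Mb, each with 63 to 933 regions, the window median was compared with the median of the other autosomes in the same library. KO DP cells were higher than WT DP cells in 23 windows, by 0.13 to 0.48 on the log2 scale with a median of 0.25. They were lower in the other 3 windows, which lie side by side from 100 to 115 Mb, by -0.19, -0.23 and -0.14. Windows 1 to 20, 21 to 23 and 24 to 26 are termed the proximal stretch, the low stretch and the distal stretch. These bounds were read off the values.

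**Figure D2:**
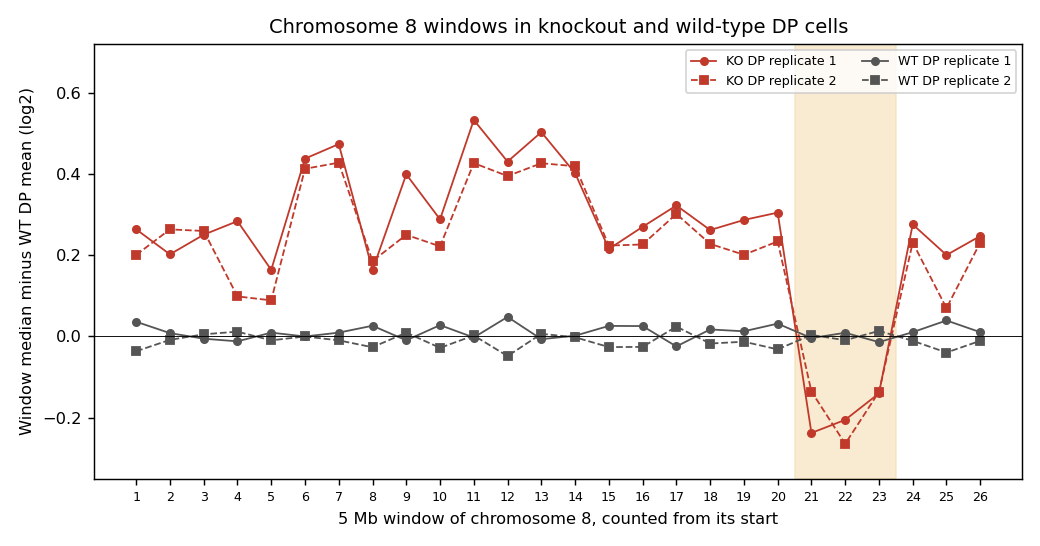
Median log2(value + 5) of each 5 Mb window of chromosome 8 relative to the other autosomes, minus the mean of the WT DP libraries, for the 2 KO DP and the 2 WT DP libraries; windows are numbered from the start of the chromosome and the shaded band marks windows 21 to 23. Both KO DP lines lie above both WT DP lines except in the band, where both lie below.

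In all 26 windows the libraries of KO DP and WT DP cells did not overlap, 23 higher and 3 lower, against 37.8% higher and 23.5% lower of the 497 autosomal windows. The highest window was window 11, from 50 to 55 Mb, with -0.03 and -0.14 in KO DP cells, against -0.57 and -0.56 in WT DP cells. It held 63 regions. The lowest was window 22, from 105 to 110 Mb, with 0.06 and 0.00 in KO DP cells, against 0.27 and 0.25 in WT DP cells over 671 regions. The KO DP libraries differed from each other by at most 0.19 in a window, with a median of 0.05, and the WT DP libraries by at most 0.10, with a median of 0.02. In the 471 windows of the other autosomes the middle 90% of differences ran from -0.13 to 0.18. Of these windows, 53 (11.3%) reached the lowest of the 23 high values of chromosome 8, and 20 were at or below the highest of its 3 low values, 5 of them on chromosome 4.

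The windows did not all stand equally high. Windows 6, 7, 11, 12, 13 and 14 had differences of 0.41 to 0.48, and windows 4, 5, 8 and 25 differences of 0.13 to 0.19. Taken instead as the median of the differences of single regions, the range was narrower at the top, with 0.34 in window 11, 0.43 in window 6 and 0.11 in window 4. By that measure windows 5 and 8 no longer stood low, at 0.25 and 0.23, and window 25 was at 0.17. Across the 23 high windows, the number of regions in a window and its difference had a Spearman rho of -0.28 and a Pearson r of -0.45, and the rho was -0.48 with the median of single region differences in place of the difference of medians. The rho with the share of regions at gene ends was 0.06, and that with the median signal was -0.18. These are descriptions, since the windows share libraries and depth.

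The values of single regions are given by stretch as a description, since the bounds were drawn from these same values. The median region difference, relative to the other autosomes, was 0.28 over the 6185 proximal regions, with 0.28 and 0.29 in the 2 KO DP libraries. It was -0.23 over the 1432 regions of the low stretch, with -0.23 and -0.22 by library. Over the 1988 distal regions it was 0.21, with 0.21 and 0.21. The KO DP value was above the WT DP value, relative to the other autosomes, in 75.0% of proximal, 27.8% of low-stretch and 71.5% of distal regions. Whole distributions were displaced, with quartiles of 0.00 and 0.58 in the proximal stretch, -0.45 and 0.04 in the low stretch and -0.25 and 0.27 on the other autosomes.

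**Figure D3:**
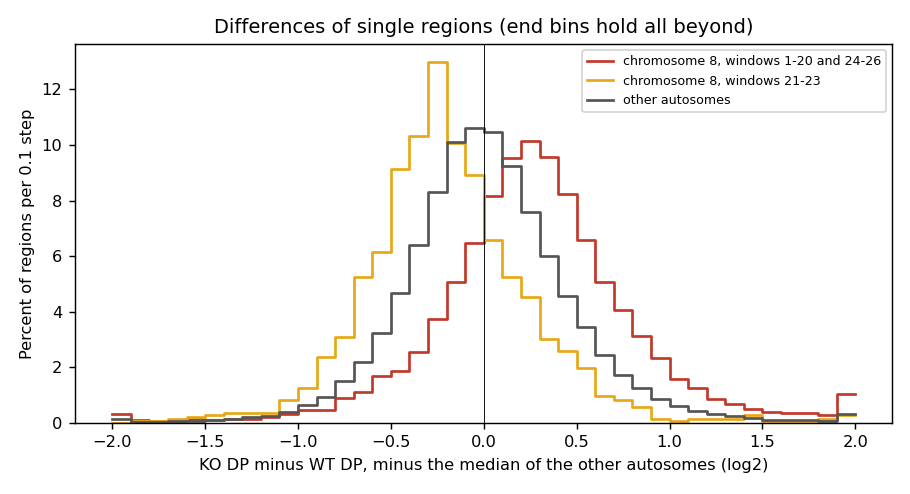
Percent of regions in each 0.1 step of the log2 difference KO DP minus WT DP, relative to the median of the other autosomes; differences beyond -2 or 2 are in the end steps. The curve of windows 1 to 20 and 24 to 26 is displaced to the right of that of the other autosomes and the curve of windows 21 to 23 to the left.

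Summed signal put sizes on these stretches. The proximal stretch held 5.10% and 5.10% as much signal as the other autosomes in KO DP cells, against 4.08% and 4.10% in WT DP cells, a ratio of 1.25. In the low stretch the shares were 1.00% and 1.00% in KO DP cells, against 1.20% and 1.20% in WT DP cells, a ratio of 0.836. For the distal stretch they were 1.59% and 1.58% in KO DP cells, against 1.31% and 1.29% in WT DP cells, a ratio of 1.22. The ratio of the proximal and distal stretches together, 1.24, was 1.48 times that of the low stretch. The low stretch held 1.26% and 1.33% in OE SP cells, against 1.21% and 1.22% in WT SP cells. The 2 KO DP libraries thus had the lowest share in the low stretch and the highest share in the proximal stretch among all 8 libraries.

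The left edge of the low stretch lay inside Cdh8 (99024471 to 99417666), the only protein-coding gene in its neighbourhood. All 10 regions from 98 to 99 Mb had a KO DP value above the WT DP value relative to the other autosomes, with a median difference of 0.65, and 12 of the 19 regions from 99 to 100 Mb had one below it, with a median of -0.18. A region of Cdh8 at 99161636 to 99162036 held 224 and 221 in KO DP cells, against 116 and 109.6 in WT DP cells. Another at 99304298 to 99304698 held 19.3 and 16.6 in KO DP cells, against 46.6 and 36.8 in WT DP cells. The promoter region of Cdh8, whose sequence is printed above, held 245 and 232 in KO DP cells, against 330.0 and 323 in WT DP cells. The first of these 3 regions was higher and the other 2 lower in both KO DP libraries. The place of the edge was chosen after these values were seen, and few regions lie around it.

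The right edge was less sharp and fell in the span of Wwox (114439635 to 115352712), which encodes an oxidoreductase known as a tumour suppressor. From 113.5 to 114.5 Mb, 62 of 95 regions had a lower KO DP than WT DP value, with a median of -0.25. From 114.5 to 115 Mb, 32 of 60 were lower, with a median of -0.05. That median hides a run inside Wwox from 114845903 to 114971752, picked after its values were seen. All regions of the run were higher in KO DP cells, by 0.81 to 1.92 relative to the other autosomes. One at 114936949 to 114937349 held 437 and 390 in KO DP cells, against 120 and 108 in WT DP cells. From 115 to 116 Mb, which includes Maf, a leucine zipper factor gene, 60 of 85 were higher, with a median of 0.30. In steps of 0.5 Mb the order was not even, with 0.08 from 113.5 to 114 Mb and -0.49 from 114 to 114.5 Mb. The low stretch from 100 to 115 Mb spans 162 protein-coding genes.

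The medians had the same sign in every signal class and place examined. In the proximal and distal stretches together, the median difference was 0.25 in the highest of 5 equal signal classes and 0.28 in the lowest. Outside the low stretch it was 0.22 at gene ends, 0.27 inside genes, 0.26 between genes and 0.30 where no gene lay within 100 kb. In the low stretch the values were spread more widely, at -0.31 in the highest class and -0.10 in the lowest. Gene ends there had -0.34, gene bodies -0.19, and the 90 regions at promoters -0.39. Low regions carry few reads, and the log2(value + 5) scale understates their differences. Promoters are rich in G and C, so the 505 promoter regions were also split by that content. Outside the low stretch the medians were 0.24, 0.25 and 0.21 from the lowest to the highest group, and in the low stretch they were -0.30, -0.35 and -0.43. The sign of each stretch was the same in all groups.

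**Figure D4:**
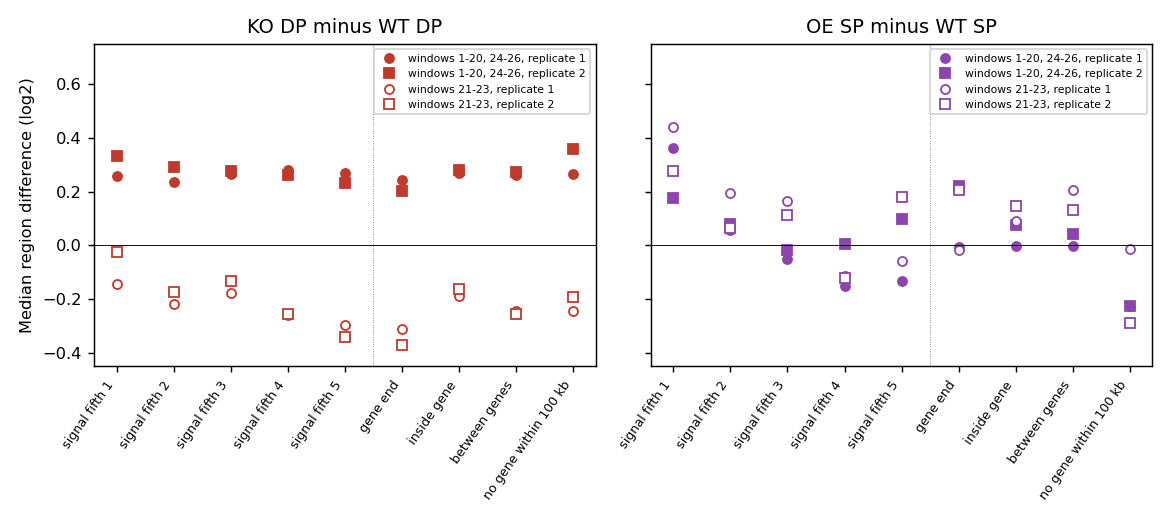
Median log2 region difference, relative to the other autosomes, for each replicate of KO DP minus the WT DP mean (left) and of OE SP minus the WT SP mean (right), by 5 equal signal classes from low to high and by place; filled points are windows 1 to 20 and 24 to 26 and open points windows 21 to 23. On the left all filled points are above 0 and all open points below it, while on the right filled and open points are mixed on both sides of 0.

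Calls of single regions are given by stretch with the same limit. Of the chromosome 8 regions, 451 (4.70%) were called higher in KO DP cells at an adjusted p below 0.05, against 1.72% of all regions tested, and 235 (2.45%) were called lower, against 2.21% (limma, Benjamini-Hochberg adjustment). Since the chromosome was chosen for this contrast, nothing is read from these shares. By stretch, 384 regions were called higher and 126 lower in the proximal stretch, 18 higher and 92 lower in the low stretch, and 49 higher and 17 lower in the distal stretch. When the median of each window was removed from its regions in every library, 248 chromosome 8 regions were called higher and 344 lower, and 243 of these higher and 181 of these lower regions were among those called without it. That centring was chosen after the data were seen, and its counts stand without a share over all regions. Without any 1 of the 4 libraries the calls numbered 77 to 114 higher and 43 to 54 lower, so the counts rest on all 4.

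A few regions differed far more than their window. At 34883911 to 34884311, inside Tnks, which encodes the telomere-associated enzyme tankyrase, KO DP cells held 197 and 177 normalized reads and the other 6 libraries held 0. Against a floor of 3 reads over the WT DP group, KO DP cells were at least 134-fold higher. A region with no gene within 100 kb, at 30813886 to 30814286, held 175 and 198 in KO DP cells, against 0.971 and 0 in WT DP cells. In Piezo1 a region at 122530416 to 122530816 held 626 and 578 in KO DP cells, against 29.1 and 19.8 in WT DP cells (log2 difference 4.38, SE 0.24). The KO DP libraries were far above all other libraries in each of these 3 regions. Over the chromosome, 8 regions (0.0833%) had at least 50 reads in the KO DP group and at most 3 in the WT DP group, against 67 (0.0433%) on the other autosomes, and 0 had the reverse, against 8 (0.00517%). Regions of the first kind could pass the minimum through the KO DP libraries alone.

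The regions with the lowest differences in KO DP cells included a pair of regions in the defensin gene cluster, a family of antimicrobial peptide genes with near-identical copies. A region at 21010561 to 21010961 near Defa21 held 20.2 and 19.0 in KO DP cells, against 228 and 251 in WT DP cells (log2 difference -3.31, SE 0.19). One at 20944806 to 20945206 at the end of AY761185 held 9.24 and 2.38 in KO DP cells, against 86.4 and 110.5 in WT DP cells (log2 difference -3.33, SE 0.30). Reads from near-identical copies can be placed in either copy, so both values are uncertain. A region with no gene within 100 kb at 92141688 to 92142088 held 23.5 and 15.5 in KO DP cells, against 173 and 197 in WT DP cells (log2 difference -2.97, SE 0.29). All 3 were lower in both KO DP libraries than in any WT DP library, though they lie in windows where KO DP cells were higher.

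Named genes were read at their region with the highest mean signal, and log2 differences of single regions are on the deposited scale with no centring, where the median over all regions tested was -0.07 and that over chromosome 8 0.13. Everyday cell genes were included because every cell uses them. The promoter region of Calr, a chaperone gene, held 1939.5 and 1789.8 in KO DP cells, against 1519 and 1464 in WT DP cells. Smarca5, encoding a chromatin remodeller, held 1285 and 1093 in KO DP cells, against 1179 and 1063 in WT DP cells. Both lie outside the low stretch, and KO DP cells were above WT DP cells in Calr while the ranges overlapped in Smarca5. Inside the low stretch, Ctcf, encoding the factor that bounds chromatin loops, held 868 and 770.1 in KO DP cells, against 1213 and 1198 in WT DP cells (log2 difference -0.56, SE 0.14). Aars, encoding an enzyme that charges transfer RNA, held 952 and 868 in KO DP cells, against 1154 and 1173 in WT DP cells. Both were lower in both KO DP libraries. Over the 78 regions of the 15 everyday genes, 4 (5.13%) were called higher and 3 (3.85%) lower, with a median of 0.19, against 4.70% and 2.45% of all chromosome 8 regions.

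Of the 16 vessel genes, 0 had a call in either direction at the region of highest mean. At the promoter of Klf2, printed above, the region held 1054 and 954 in KO DP cells, against 821 and 768 in WT DP cells (log2 difference 0.33, SE 0.18). Efnb2, an artery ligand gene, held 1189.8 and 1069.6 in KO DP cells, against 1123 and 1031 in WT DP cells at its promoter. Cdh5, in the low stretch, held 244 and 214 in KO DP cells, against 252 and 249 in WT DP cells in a region between genes (log2 difference -0.13, SE 0.16). KO DP values were above WT DP values in Klf2, those of Efnb2 overlapped, and Cdh5 was lower. The log2 differences of the 16 ran from -0.13 in Cdh5 to 0.52 in Col4a1, a basement membrane collagen gene. The others were Efnb2, Klf2, Vegfc, Nrp1, Angpt2, Plvap, Ednra, Foxc2, Foxf1, Col4a2, Plat, Piezo1, Smad1 and Hand2. Over all 309 regions of the list, 15 (4.85%) were called higher and 4 (1.29%) lower, against 4.70% and 2.45% of all chromosome 8 regions. Their median was 0.21, and after subtraction of the window medians the list's median was 0.07.

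Of the 12 genes of blood cells, Il15 alone had a call at its region of highest mean. Lyl1 held 600.3 and 618 in KO DP cells, against 402 and 429 in WT DP cells at its gene end (log2 difference 0.55, SE 0.21). Cbfb, in the low stretch, held 588 and 604 in KO DP cells, against 792 and 774 in WT DP cells at its promoter (log2 difference -0.39, SE 0.18). KO DP values were above WT DP values in Lyl1 and below them in Cbfb. Il15, which encodes a lymphocyte cytokine, had the highest difference of the list, with 96.6 and 107 in KO DP cells, against 55.3 and 59.3 in WT DP cells (log2 difference 0.78, SE 0.20). The lowest was Cbfb, and the other 9 genes were Klf1, Zfpm1, Cbfa2t3, Irf8, Jak3, Ank1, Plcg2, Irf2 and Cyba. Over the 178 regions of the 12 genes, 6 (3.37%) were called higher and 4 (2.25%) lower, near the shares of the whole chromosome, with a median of 0.06.

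Genes of heart muscle, signals and adhesion included some on either side of the edges. Fhod1, in the low stretch, held 887 and 835 in KO DP cells, against 1056 and 1053 in WT DP cells at its promoter. Palld, outside it, held 914 and 940.1 in KO DP cells, against 609.6 and 572 in WT DP cells (log2 difference 0.65, SE 0.14). Palld was chosen after its value was seen. The FGF receptor gene Fgfr1 held 1165 and 1134 in KO DP cells, against 677 and 682 in WT DP cells (log2 difference 0.75, SE 0.32), and the insulin receptor gene Insr 1013 and 897 in KO DP cells, against 643 and 637 in WT DP cells (log2 difference 0.57, SE 0.19). Calb2, which encodes the calcium-binding protein calretinin and lies in the low stretch, held 344 and 324 in KO DP cells, against 551 and 527 in WT DP cells (log2 difference -0.68, SE 0.14). The cadherin genes Cdh1, Cdh3, Cdh5, Cdh11 and Cdh16 all lie in the low stretch, and 4 of these 5 had lower values in KO DP cells, Cdh1 (E-cadherin) being the exception with 352 and 359 in KO DP cells, against 348 and 327 in WT DP cells. Of the 83 genes of all lists, 12 had their region in the low stretch and 11 of these had a difference below 0, while 54 of the other 71 had one above 0. The stretches were drawn from this contrast, so these counts are a description.

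The remaining lists are set beside the 4.70% higher and 2.45% lower of all chromosome 8 regions in KO DP cells against WT DP cells. Heart and muscle genes had 13 regions called higher (4.73%) and 5 lower (1.82%) of 275, with a median of 0.19. Signals and patterning of mesoderm had 15 higher (5.10%) and 2 lower (0.680%) of 294, with a median of 0.21. Adhesion genes, 5 of 9 in the low stretch, had 4 higher (1.67%) and 10 lower (4.17%) of 240, with a median of -0.09. Under median-of-ratios rescaling these became 7 (2.92%) and 9 (3.75%), with a median of -0.01. All chromosome 8 regions then had 7.56% higher and 2.63% lower, with a median of 0.20. Neural genes had 5 higher (1.77%) and 6 lower (2.13%) of 282, with a median of -0.07 that became 0.00 under median-of-ratios rescaling, and the AP-1 and KLF factor genes 2 higher and 0 lower of 15, with a median of 0.31.

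WT SP cells differed from WT DP cells at single regions of chromosome 8 about as often as elsewhere. In WT SP cells 578 regions (6.02%) were higher, against 6.2% of all regions tested, and 774 (8.06%) were lower, against 8.12% (limma, Benjamini-Hochberg adjustment). Without any 1 of the 4 libraries, 94 to 123 were higher and 203 to 278 lower. Of the 26 windows, 1 was called higher, against 0.604% of all 497 autosomal windows, and 0 were called lower, against 3.02%. This was window 15, from 70 to 75 Mb, with 0.70 and 0.68 in WT SP cells, against 0.46 and 0.40 in WT DP cells (difference 0.26, SE 0.05, limma adjusted p = 0.0199). The call was lost without any 1 of the 4 libraries, and the median of its single region differences was 0.07. Of the 502 regions in that window 30 were called higher and 19 lower, against 6.2% and 8.12% of all regions tested. The low stretch had, between the sorted wild-type populations, a median region difference of -0.02.

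The largest rises of WT SP cells over WT DP cells lay between and inside genes. Csgalnact1, encoding an enzyme of chondroitin sulfate synthesis, held 98.7 and 100.1 in WT SP cells, against 8.74 and 8.08 in WT DP cells at 68606713 to 68607113 (log2 difference 2.96, SE 0.27, adjusted p = 0.000189). A region at 11084084 to 11084484, nearest to Irs2, an insulin signalling gene, held 186 and 190.3 in WT SP cells, against 32.0 and 37.7 in WT DP cells (log2 difference 2.28, SE 0.33, adjusted p = 0.00136). The WT SP and WT DP libraries were far apart in both, and the third, nearest to Ap1m1, had a log2 difference of 3.45. The largest falls were at 90555246 to 90555646, with no gene within 100 kb, which held 28.5 and 14.9 in WT SP cells, against 248 and 208 in WT DP cells (log2 difference -3.17, SE 0.33, adjusted p = 0.00028), and nearest to Dctd at 48177412 to 48177812, which held 4.07 and 4.96 in WT SP cells, against 50.5 and 56.6 in WT DP cells (log2 difference -2.62, SE 0.25, adjusted p = 0.000218). A region at 89524334 to 89524734 with no gene within 100 kb fell as well (log2 difference -2.60, SE 0.19, adjusted p = 0.000111). These adjusted p-values are from limma, and these 6 calls held without any 1 library.

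Read at the region of highest mean, 3 of the 28 vessel and blood genes rose in WT SP cells and 0 fell. Under median-of-ratios rescaling these 3 rises stayed called, and Smad1 was called lower (log2 difference -0.45, limma adjusted p = 0.0174). Col4a1 held 303 and 347 in WT SP cells, against 101 and 108 in WT DP cells (log2 difference 1.59, SE 0.32, adjusted p = 0.00715). Cbfa2t3, encoding a blood stem cell corepressor, held 735 and 660.2 in WT SP cells, against 294 and 267 in WT DP cells (log2 difference 1.30, SE 0.23, adjusted p = 0.00336). At the Piezo1 promoter the region held 665 and 629 in WT SP cells, against 418 and 402 in WT DP cells (log2 difference 0.65, SE 0.16, adjusted p = 0.0174). WT SP cells were above WT DP cells in all 3, but the limma calls of Col4a1 and Piezo1 were lost without any 1 of the 4 libraries, and that of Cbfa2t3 without WT SP replicate 1 or WT DP replicate 2. Without these libraries the adjusted p reached 0.0816 for Col4a1, 0.152 for Piezo1 and 0.0572 for Cbfa2t3. Over the lists, 32 vessel regions of 309 (10.4%) rose and 16 (5.18%) fell, with a median of 0.18, and 20 blood regions of 178 (11.2%) rose and 12 (6.74%) fell, with a median of 0.17. Over all regions tested 6.2% rose and 8.12% fell, with a median of 0.11. In the adhesion list 11 of 240 (4.58%) rose and 32 (13.3%) fell, with a median of -0.05, and in the heart and muscle list 16 of 275 (5.82%) rose and 29 (10.5%) fell, with a median of 0.09. Irs2 had 12 regions that rose and 0 that fell of 39, and it was singled out after its values were seen.

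In OE SP cells many chromosome 8 regions changed, up in some windows and down in others. Of the 9605 regions, 1622 (16.9%) rose, against 16.6% of all regions tested, and 2875 (29.9%) fell, against 31.9% (limma, Benjamini-Hochberg adjustment). Rescaling by median-of-ratios factors added 0.25 to every log2 difference. The split was then 2376 higher (24.7%) and 2294 lower (23.9%), against 23.6% and 25.1% of all regions tested. By window, 8 of 26 were higher, against 33.0% of all windows, and 4 were lower, against 16.9%. Window 11 had -0.16 and -0.05 in OE SP cells, against -0.52 and -0.69 in WT SP cells (difference 0.50, SE 0.07, limma adjusted p = 0.000483). Window 12 next to it, from 55 to 60 Mb, had -0.38 and -0.31 in OE SP cells, against -0.04 and -0.07 in WT SP cells (difference -0.29, limma adjusted p = 0.00135). By window medians these were the highest and the lowest of the 26. By the median of single region differences window 11 was again the highest, at 0.39, but window 12 was at -0.08 and window 18 was the lowest, at -0.25. Without WT SP replicate 1 the lower windows numbered 2, and without WT SP replicate 2 they numbered 1. The median region difference was 0.06 in the proximal stretch, 0.11 in the low stretch and -0.08 in the distal stretch. The OE SP libraries differed in the distal stretch, with -0.17 in replicate 1 and 0.00 in replicate 2.

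**Figure D5:**
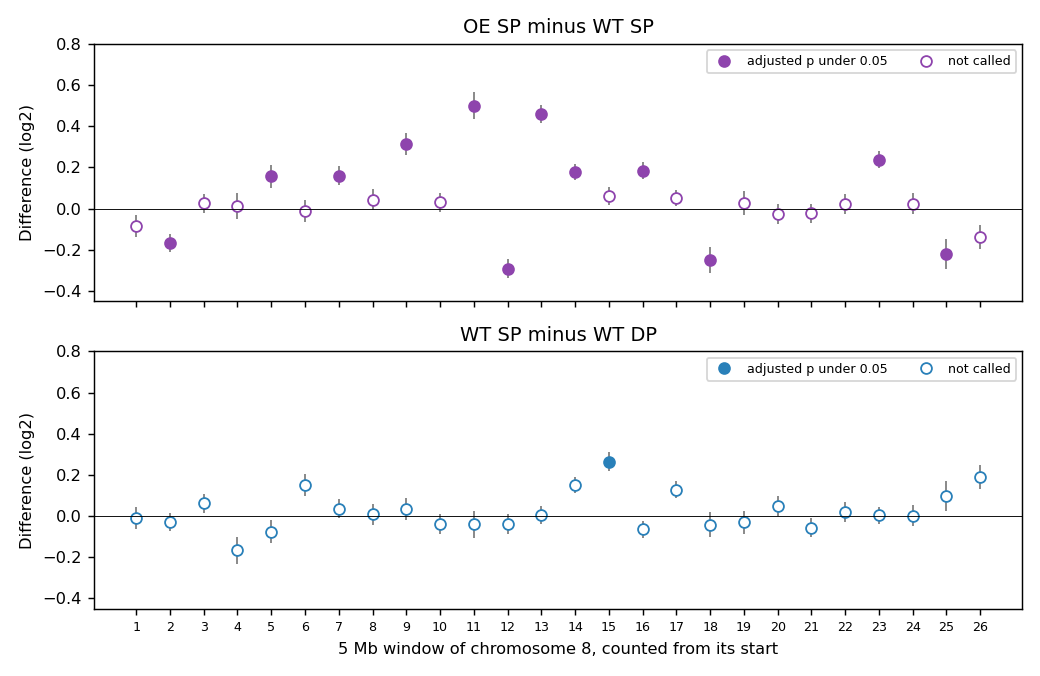
Difference of the window medians of chromosome 8, relative to the other autosomes, for OE SP minus WT SP (upper panel) and WT SP minus WT DP (lower panel), with the standard error of the limma fit; filled points passed 0.05 after Benjamini-Hochberg adjustment across the 497 autosomal windows. The upper panel has 8 filled points above 0 and 4 below it, and the lower panel has 1, in window 15.

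The strongest rises in OE SP cells were at regions with low signal in WT SP cells. Irf2, encoding an interferon regulatory factor, held 277 and 447 in OE SP cells, against 24.4 and 22.8 in WT SP cells at 46845105 to 46845505 (log2 difference 3.64, SE 0.27, adjusted p = 4.88e-06). Inside Wwox a region at 114473548 to 114473948 held 114 and 180.0 in OE SP cells, against 6.11 and 9.91 in WT SP cells (log2 difference 3.53, SE 0.29, adjusted p = 6.8e-06). A region with no gene within 100 kb at 8407410 to 8407810 held 194 and 225 in OE SP cells, against 14.2 and 9.91 in WT SP cells (log2 difference 3.66, SE 0.27, adjusted p = 4.76e-06). OE SP values lay far above WT SP values in all 3, and these adjusted p-values are from limma. The Wwox region held 8.40 and 9.51 in KO DP cells and 5.82 and 8.98 in WT DP cells. That at 8407410 to 8407810 held 5.04 and 3.57 in KO DP cells and 3.88 and 7.19 in WT DP cells. Both could pass the minimum of 10 through the OE SP libraries alone, so their p-values lend the rises no weight. The region nearest to Ap1m1 and that in Csgalnact1, higher in WT SP than in WT DP cells, rose further, with 1002 and 1574 in OE SP cells near Ap1m1 and 274 and 447 in Csgalnact1 (log2 difference 1.77, SE 0.27, adjusted p = 0.000252).

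The strongest falls were in Tox3, a neural transcription factor gene, near Cdh13, a cadherin gene, and in Wwc2, a Hippo pathway regulator. The Tox3 region at 90323805 to 90324205 held 10.9 and 9.20 in OE SP cells, against 214 and 206 in WT SP cells (log2 difference -3.84, SE 0.18, adjusted p = 2.72e-06). The Cdh13 region at 118051800 to 118052200 held 7.29 and 52.6 in OE SP cells, against 365 and 375 in WT SP cells (log2 difference -3.82, SE 0.48, adjusted p = 6.79e-05). Wwc2 held 2.92 and 27.6 in OE SP cells, against 185 and 189 in WT SP cells at 47887110 to 47887510 (log2 difference -3.58, SE 0.45, adjusted p = 6.81e-05). The OE SP libraries were below the WT SP libraries in all 3 but differed from each other several-fold near Cdh13 and in Wwc2. These limma calls held without any 1 library.

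Of the 294 regions of signal and patterning genes 32 (10.9%) rose in OE SP cells and 127 (43.2%) fell, against 16.6% and 31.9% of all regions tested, with a median of -0.47 beside -0.22. Under median-of-ratios rescaling 47 (16.0%) rose and 102 (34.7%) fell, against 23.6% and 25.1% of all regions tested, with a median of -0.27 beside 0.00. The Smad1 region, at the gene of a BMP signal mediator, held 199.9 and 271 in OE SP cells, against 621 and 616 in WT SP cells (log2 difference -1.39, SE 0.17, adjusted p = 4.7e-05). That of Fgfr1 held 207 and 562 in OE SP cells, against 947 and 962 in WT SP cells (log2 difference -1.47, SE 0.32, adjusted p = 0.00232). Both OE SP libraries lay below both WT SP libraries in each, and OE SP replicate 2 was the higher. Foxf1, a factor gene of splanchnic mesoderm, held 85.3 and 185 in OE SP cells, against 583 and 546 in WT SP cells (log2 difference -2.12, SE 0.26, adjusted p = 5.9e-05), and of its 17 regions 0 rose and 11 fell. These 3 limma calls held without any 1 library. In the printed promoter of Pdlim3 the region held 164 and 268 in OE SP cells, against 549.6 and 596 in WT SP cells (log2 difference -1.43, SE 0.20, adjusted p = 0.000133), and it too held without any 1 library. The heart and muscle list as a whole had 57 regions (20.7%) that rose and 93 (33.8%) that fell of 275. Under the rescaling it had 67 (24.4%) and 78 (28.4%).

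In the vessel list 68 of 309 regions (22.0%) rose in OE SP cells and 101 (32.7%) fell, with a median of -0.27. In the blood list 37 of 178 (20.8%) rose and 57 (32.0%) fell, with a median of -0.29. Over all regions tested the shares were 16.6% and 31.9%. Median-of-ratios rescaling gave 80 (25.9%) and 85 (27.5%) in the vessel list and 48 (27%) and 46 (25.8%) in the blood list. Over all regions tested it gave 23.6% and 25.1%, so the split between rises and falls depends on the scaling. Cdh5 had 13 regions that rose and 6 that fell of 36, and its region with the highest mean held 215 and 252 in OE SP cells, against 269.7 and 274 in WT SP cells (log2 difference -0.22, SE 0.16, adjusted p = 0.288). Col4a2 had 11 that rose and 4 that fell of 29. Of the 16 vessel genes, 14 had calls in both directions, 1 had falls only and 0 had rises only. Angpt2, a vessel-remodelling ligand gene, held 81.0 and 125 in OE SP cells, against 336 and 337 in WT SP cells in its region with the highest mean (log2 difference -1.69, SE 0.19, adjusted p = 3.31e-05). Irf8, a factor gene of myeloid cells, held 49.6 and 188 in OE SP cells, against 525 and 541 in WT SP cells (log2 difference -2.39, SE 0.40, adjusted p = 0.000439). Both regions fell, and their limma calls held without any 1 library. Il15 rose, with 90.5 and 99.9 in OE SP cells, against 44.8 and 55.5 in WT SP cells (log2 difference 0.87, SE 0.20, adjusted p = 0.00312). Falls in Hand2 (-0.57), Jak3 (-0.71) and Ank1 (-0.53) were each lost without WT SP replicate 1 or WT SP replicate 2, and that of Ank1 without OE SP replicate 1 too, with limma adjusted p up to 0.0899, 0.0947 and 0.161. Rescaling ended the call of Ank1 as well (limma adjusted p = 0.115). It also brought calls of rises at the regions of highest mean of Col4a1 (0.88, limma adjusted p = 0.0220) and Cbfa2t3 (0.75, limma adjusted p = 0.0042). Rises were called under it at those of Lyl1 (0.67, limma adjusted p = 0.0044) and Plat (0.38, limma adjusted p = 0.0191) too. The adhesion list had 40 (16.7%) that rose and 87 (36.2%) that fell of 240, and the neural list 50 (17.7%) and 105 (37.2%) of 282. The everyday list had 8 (10.3%) and 20 (25.6%) of 78, and the AP-1 and KLF list 2 and 3 of 15. The latter became 4 (26.7%) and 3 (20%) under the rescaling.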

How the data were processed

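ATAC-seq was measured in 8 libraries, 2 from each of 4 groups, with samples grouped by their labels. Per the submitters' processing notes, the authors used Bowtie2, MACS2, DiffBind 3.14.1 and the mm10 build. The deposited table holds a normalized signal for each of 168842 regions. The basis of the scaling factors, the handling of duplicates and of the Tn5 offset, and the pooling of libraries for peak calling: not given in the sources used here. All deposited signal values were whole multiples of the value of 1 read (100% of values within 0.01 reads), which gave the depths.

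The deposited signal was used as log2(value + 5), for regions with a mean of at least 10, and fold changes on this scale understate those of low regions. limma 3.58.1 in R 4.3.3 was fitted to all 167573 regions and all 8 libraries (4 residual and 8.15 prior degrees of freedom), with Benjamini-Hochberg adjustment over all regions and a threshold of 0.05. Windows of 5 Mb with at least 20 regions were fitted likewise after subtraction of each library's median over the other autosomes. The shift of the whole chromosome was compared by an exact permutation test. On the recovered reads, edgeR 4.0.16 called 953 chromosome 8 regions higher and 318 lower in KO DP cells, and DESeq2 1.42.0 called 339 and 104. Between WT SP and WT DP cells edgeR called 603 higher and 1109 lower, and DESeq2 280 and 553. Between OE SP and WT SP cells edgeR called 2433 and 2267, and DESeq2 1624 and 1570. No share over all regions stands beside these counts, so they show how the method moves the calls and nothing particular to chromosome 8.

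A region was assigned to the nearest protein-coding gene of RefSeq within 100 kb, so the gene it acts on is not known. The build was checked on the 1000 regions with the highest signal, of which 54.0% were at gene ends (1 kb or less) and 4.6% were once all positions had been moved by 1 Mb. Each listed gene was named by its region with the highest mean, with every vessel and blood gene and 4 genes of each other list, and the 3 largest differences in each direction and comparison. Genes outside this rule, among them Palld, Pdlim3, Cdh8, Cdh1 and Cdh3, were chosen after their values were seen. The members and lists were chosen with earlier results of these data known. Other scalings, filters, window sizes, models and left-out libraries were tried. Gene lists were also counted after median-of-ratios rescaling, an alternative added after the data were seen. The fits were tested on simulated data. Tables and figures used Python 3.11.15, pandas 2.3.3, numpy 2.4.6, scipy 1.17.1 and matplotlib 3.10.9.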

Additional observations from a re-analysis of the deposited data

How the results depend on the processing

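The higher chromosome 8 shift of KO DP over WT DP cells (0.21) kept its direction in every setting tried. It was 0.24 with a pseudocount of 1, 0.17 with no filter, 0.19 as a mean over regions and 0.20 to 0.23 without any 1 library. The shift of WT SP over WT DP cells (0.03) changed sign to -0.0038 as a mean over regions and to -0.0072 as the median of region differences, a setting chosen after the data were seen. The shift of OE SP over WT SP cells (0.01) changed sign to -0.015 with no filter and to -0.030 without OE SP replicate 2, within a leave-one-out range of -0.030 to 0.046. The cause was not tested.

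Counts of regions moved more. Except for the rescaling, no share over all regions stands beside them, so they describe the settings and nothing particular to chromosome 8. With a mean of at least 50, where fewer regions are tested, KO DP cells had 150 higher and 110 lower, WT SP cells 259 and 321, and OE SP cells 410 and 1346. With the compared groups fitted alone, KO DP cells had 1969 higher and 955 lower and WT SP cells 2133 and 1462. Median-of-ratios rescaling gave 726 higher in KO DP cells (7.56%, against 2.68% of all regions tested), edgeR 953, and removal of window medians 248. The median-of-ratios rescaling moved every log2 difference by 0.09 for KO DP, by -0.10 for WT SP and by 0.25 for OE SP cells. DESeq2 gave 104 lower in KO DP cells, 280 higher in WT SP cells and 1570 lower in OE SP cells. Without any 1 library, KO DP cells had 77 to 114 higher and 43 to 54 lower, WT SP cells 94 to 123 and 203 to 278, and OE SP cells 1215 to 2248 and 2040 to 3829.

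Among windows, WT SP cells had 2 higher and 5 lower at 2 Mb, 0 higher at 10 Mb, 2 higher and 4 lower as means over regions, 1 lower with a mean of at least 50, and 0 higher without any 1 library. OE SP cells had 21 higher and 10 lower at 2 Mb, 5 and 2 at 10 Mb, 2 lower with a mean of at least 50, and 1 to 5 lower without any 1 library. Same-numbered libraries deviated together little (correlations -0.004 to 0.056), so numbers do not pair the samples. A replicate block left the KO DP shift at 0.21 and gave 430 regions higher and 203 lower in KO DP, 576 and 755 in WT SP and 1626 and 2841 in OE SP cells. These region counts too stand without a share over all regions. The window counts of this paragraph stand without the number of windows tested and without a share over all autosomal windows. They describe the settings and nothing particular to chromosome 8. Depth limits single regions, since the median region held 28 to 49 reads.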
